A study of Mus musculus with 8 samples.

Results

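The levels of 9 genes of circulating monocytes and their subsets were examined in the whole blood of mice exposed to restraint stress (RST) and of control mice. The members are Ms4a6c, Ctss, Csf1r, Cx3cr1, Ccr2, Cd14, Ly86, Treml4 and Lyz2, and they were found as all probe sets whose single gene name in the platform annotation is one of the 9. This gave 16 of the 45101 probe sets of the array, and 34958 of those carry a single gene name. Ccr2 and Ms4a6c stood for classical monocytes with 6 probe sets, and Cx3cr1 and Treml4 stood for nonclassical monocytes with 3. The arrays hold RNA of 4 RST mice and 4 control mice, 1 array per mouse, all female C57BL/6J mice whose age the labels give as 6 to 8 weeks, in the methods the age when bought and before acclimation. RST mice were kept in a ventilated tube for 6 h per day and were sampled on Day 7, and control mice went without food and water over the same hours but were otherwise left alone. The labels name no altered gene and no drug in either group. Cages, not single mice, were assigned to the groups and the cage of each mouse is not given in the sources used here, so p-values measure the spread between these 8 mice. Whole blood was not sorted, so fewer cells of a type and less RNA per cell cannot be told apart.

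Monocytes, whose lineage is defined by the receptor for colony-stimulating factor 1, leave the bone marrow for the blood. They circulate as short-lived classical cells, which enter inflamed tissue, and as longer-lived nonclassical cells, which patrol the vessel wall. Classical cells of the mouse carry much CCR2, the receptor for the chemokine CCL2 that draws them out of the marrow. Nonclassical cells carry much CX3CR1, the receptor for fractalkine on endothelium, and in the mouse also TREML4. Glucocorticoids, which rise under stress, are known to change the numbers of circulating white cells.

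Expression is given as the log2 level of a probe set, on which 1 unit is a doubling, and a fold change is the RST mean minus the control mean on that scale. Tested were the 25084 probe sets that exceeded the array median in 2 or more mice of the same group. A call needed a difference of more than 1.5-fold and a limma p under 0.05 after Benjamini-Hochberg adjustment over all of them. Of the 16 member probe sets 15 were tested, covering all 9 genes, and the second Cx3cr1 probe set was below the array median in every array. As a marker of monocytes in the labelled tissue, Csf1r, the receptor that defines the monocyte lineage, was above the array median in 8 of 8 arrays at each of its 3 probe sets. The arrays themselves differed. The upper quartile of all log2 values was 4.50 to 5.19 in RST mice and 5.13 to 5.37 in control mice, and the median fold change over the tested probe sets was −0.20, so member values are also given relative to it. In 41.5% of the tested probe sets RST mouse 4 was the lowest of the 8. Control transcripts added before hybridization (18 probe sets) averaged 12.35 in RST mouse 2 and 12.71 to 12.73 in the other RST mice, against 11.90 and 11.93 in control mice 2 and 1 and 12.60 and 12.74 in the other control mice.

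The mean of most monocyte genes was lower in RST mice. For Ms4a6c at its brightest probe set, and for Ly86 and Ctss, all 4 RST mice lay below all 4 control mice. None of the 15 tested probe sets was called by limma, where the call rule took 0% of the 25084 tested probe sets, and the smallest adjusted p among the members was 0.32. An analysis of variance per probe set, the test named in the methods, also called 0 of the 15 after Benjamini-Hochberg adjustment and 0 of the 25084. A trended and robust prior in limma called 0 of the 15 and 0.14% of all tested probe sets. With a limma p under 0.05 before adjustment and a difference of more than 1.5-fold, which is called the unadjusted threshold here, 4 of 15 passed (26.7%), all lower in RST mice, against 13.3% of all tested probe sets in either direction and 10.4% in the lower direction. Groups did not overlap for 3 of 15 (20%), against 7.99% of all tested probe sets, and 5.76% for those lower in RST mice. A lower mean in RST mice was found for 14 of 15 probe sets and for 8 of 9 genes, against 65.3% of all tested probe sets. The median fold change of the 15 was −0.61, against −0.20 over all tested probe sets. Relative to the latter, the brightest probe sets of Ms4a6c, Ly86, Ctss and Ccr2 were at −0.98, −0.75, −0.61 and −0.55. Csf1r, Lyz2, Cx3cr1, Treml4 and Cd14 were at −0.41, −0.30, −0.25, −0.24 and 0.57 on the same basis. The unadjusted count depended on single mice, as did the share over all tested probe sets. It was 2 on leaving out RST mouse 1 (9.55% of all), 7 on leaving out RST mouse 2 (20% of all) and 2 on leaving out control mouse 2 (7.15% of all). On leaving out control mouse 4, the groups did not overlap for 8 of 15, against 14.5% of all.

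**Figure D1:**
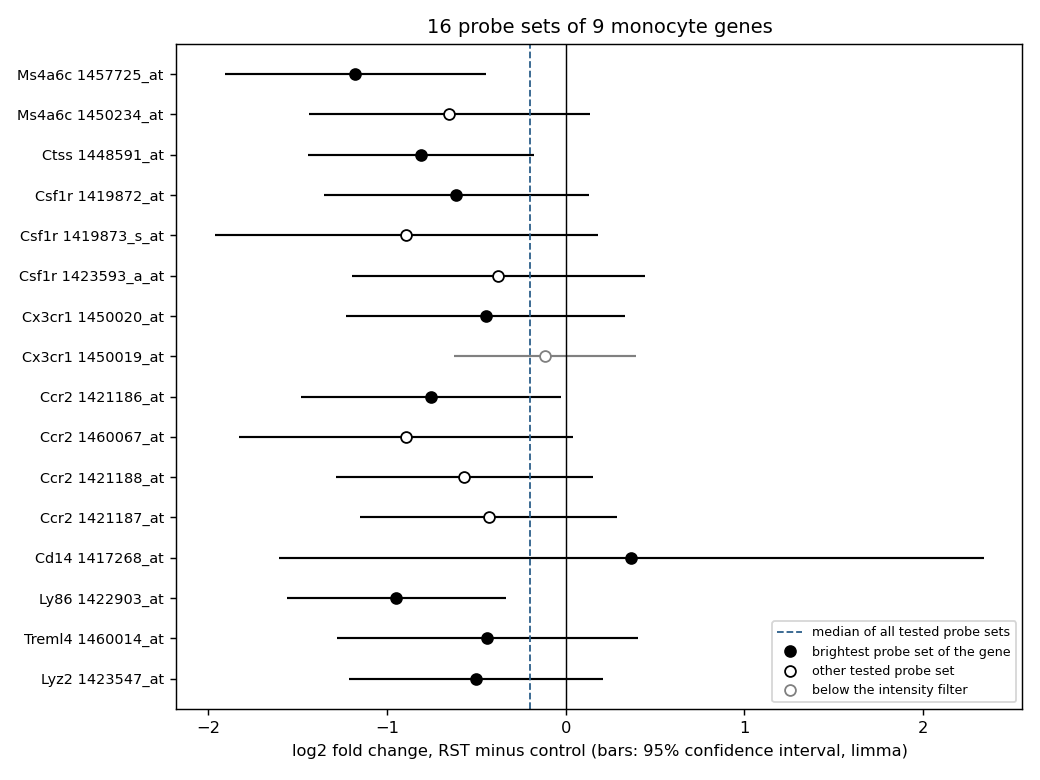
Log2 fold change (RST minus control, x axis) of the 16 member probe sets with 95% confidence intervals from limma, filled points marking the brightest probe set of each gene and the dashed line the median of all tested probe sets (−0.20). Of the tested points, 14 lie left of 0 and Cd14 lies right of it.

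Of the classical genes, Ms4a6c, which encodes a four-span membrane protein of the MS4A family found on monocytes and macrophages, had the largest difference of the 9. Its brightest probe set (1457725_at) had log2 levels of 7.50, 7.50, 6.85 and 6.16 in RST mice 1 to 4, against 8.50, 8.24, 7.97 and 8.00 in control mice 1 to 4. Every RST mouse was below every control mouse, with RST mouse 4 the lowest. The fold change was −1.18 (standard error 0.33, 2.26-fold lower, adjusted p = 0.32 from limma), or −0.98 relative to the median probe set, and the exact permutation test (two-sided) gave p = 0.029, the smallest p that 4 mice against 4 allow. The second probe set of Ms4a6c (1450234_at) differed less. It had levels of 6.35, 7.28, 7.01 and 5.90 in RST mice, against 7.45, 7.71, 6.65 and 7.33 in control mice, where RST mice 2 and 3 lay above control mouse 3. Its fold change was −0.65 (standard error 0.36, adjusted p = 0.42 from limma).

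Ccr2 was measured by 4 probe sets, each with a mean below that of control mice. The brightest (1421186_at) had levels of 6.11, 6.77, 6.70 and 5.77 in RST mice, against 7.26, 7.68, 6.84 and 6.59 in control mice. RST mice 2 and 3 were above control mouse 4, so the groups overlapped. Its fold change was −0.75 (standard error 0.33, 1.69-fold lower, adjusted p = 0.36 from limma), with an exact permutation p of 0.11 (two-sided). The other 3 probe sets had fold changes from −0.89 to −0.43, and their groups overlapped as well. All 3 were low, with means of 3.71 to 3.77 in RST mice, whose array medians were 3.19 to 3.46. In control mice the means were 4.20 to 4.64 and the array medians 3.29 to 3.44. The one at −0.89 (1460067_at) was above the array median in 6 of 8 arrays, and 1421188_at in 7 of 8. Without RST mouse 4 and control mice 1 and 2, the fold change of the brightest probe set was −0.19.

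Neither nonclassical gene passed the unadjusted threshold, and the groups overlapped for both. Cx3cr1 (1450020_at) had log2 levels of 5.30, 6.24, 5.64 and 5.44 in RST mice, against 6.72, 6.57, 5.37 and 5.75 in control mice. Control mice 1 and 2 were the highest of the 8, RST mouse 2 came next, and control mouse 3 lay between the RST mice. RST minus control was −0.45 (standard error 0.36, 95% confidence interval −1.23 to 0.33, adjusted p = 0.57 from limma), and it was 0.094 without control mice 1 and 2 and 0.070 when the hybridization controls entered as a covariate. The second probe set (1450019_at) was below the array median in all 8 arrays, at 2.34 to 2.86 in RST mice and 2.43 to 3.22 in control mice.

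Treml4 encodes a receptor-like protein of the TREM family. Its probe set (1460014_at) had levels of 6.17, 7.13, 6.79 and 5.29 in RST mice, against 6.95, 7.13, 6.41 and 6.65 in control mice. RST mouse 2 was level with the highest control mouse, while RST mouse 4 was far below every other mouse. The log2 difference was −0.44 (standard error 0.38, 95% confidence interval −1.28 to 0.40, adjusted p = 0.60 from limma). Leaving out RST mouse 4 gave −0.09, leaving out RST mouse 2 gave −0.70, and leaving out RST mouse 4 with control mice 1 and 2 gave 0.17.

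**Figure D2:**
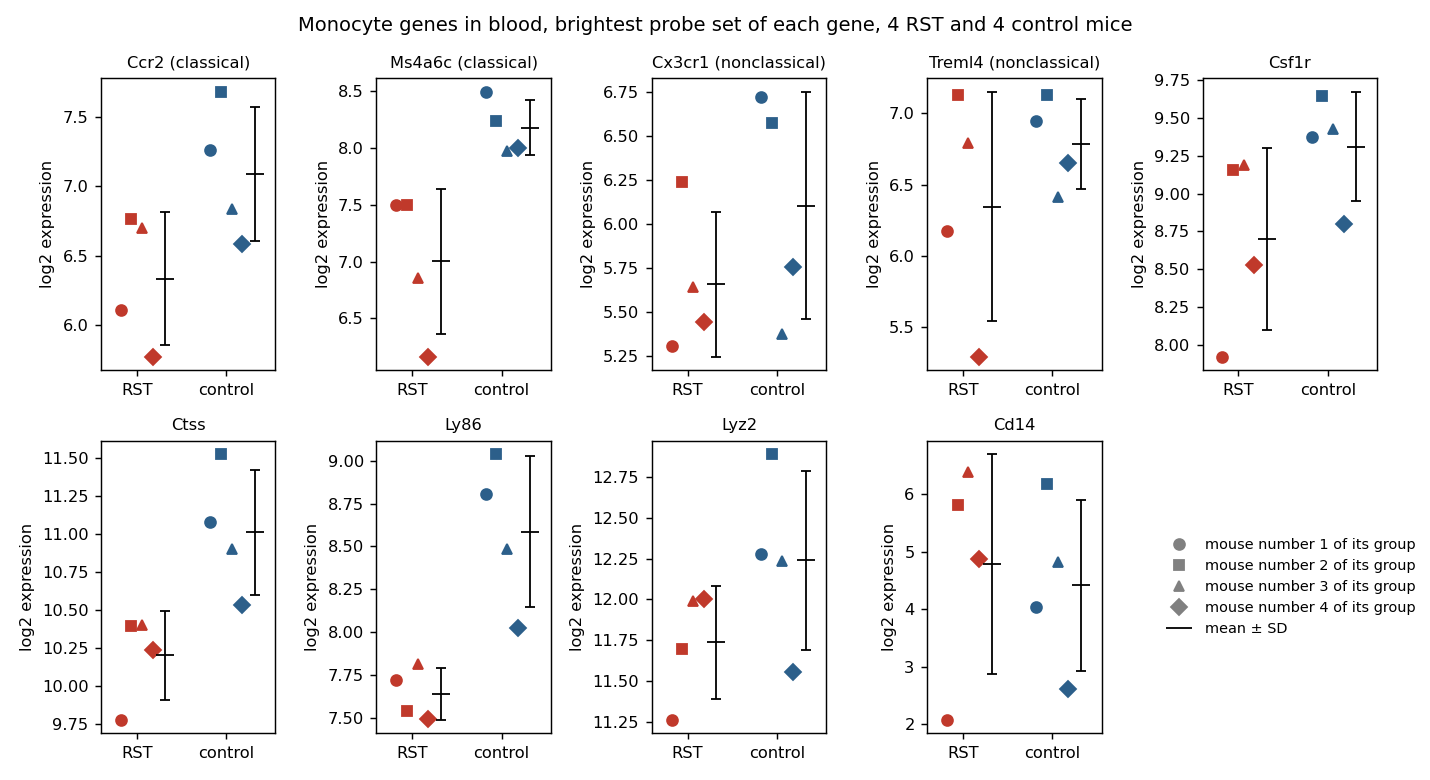
Log2 expression (y axis, its own range in each panel) of the brightest probe set of each of the 9 genes in 4 RST mice (red) and 4 control mice (blue), 1 point per mouse with a symbol for its number and black bars for the mean ± SD. The RST points lie below all control points for Ms4a6c, Ctss and Ly86, and the groups overlap in the other 6 panels.

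To set classical against nonclassical genes within each mouse, every gene was taken at its brightest probe set. Its difference from the control mean was averaged over the pair. The classical pair lay at −0.83, −0.50, −0.86 and −1.67 in RST mice 1 to 4, against 0.24, 0.32, −0.23 and −0.34 in control mice 1 to 4. The nonclassical pair lay at −0.70, 0.24, −0.23 and −1.08 in RST mice, against 0.39, 0.40, −0.55 and −0.24 in control mice. At these probe sets the classical pair was therefore lower in each RST mouse than in any control mouse, and the nonclassical pair was not. The classical minus nonclassical value was −0.13, −0.74, −0.63 and −0.59 in RST mice, against −0.14, −0.08, 0.32 and −0.10 in control mice. RST mice 2, 3 and 4 were below all control mice and RST mouse 1 was not, so the groups overlapped. The mean was −0.52 ± 0.27 (SD, n = 4) in RST mice and, by construction, at the zero line in control mice (SD 0.22, n = 4). Between Ms4a6c and Treml4 alone the mean in RST mice was −0.74 ± 0.55, and between Ccr2 and Cx3cr1 it was −0.31 ± 0.32 (SD, n = 4 each), with overlapping groups in both cases. These differences were not tested, since the genes were chosen with results known. The mean ran from −0.66 to −0.34 over the alternatives run, and was −0.34 when all tested probe sets of a gene were averaged. With that averaging the groups of Ms4a6c and of Ccr2 overlapped, so the separation of the classical pair is given for the brightest probe sets alone.

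**Figure D3:**
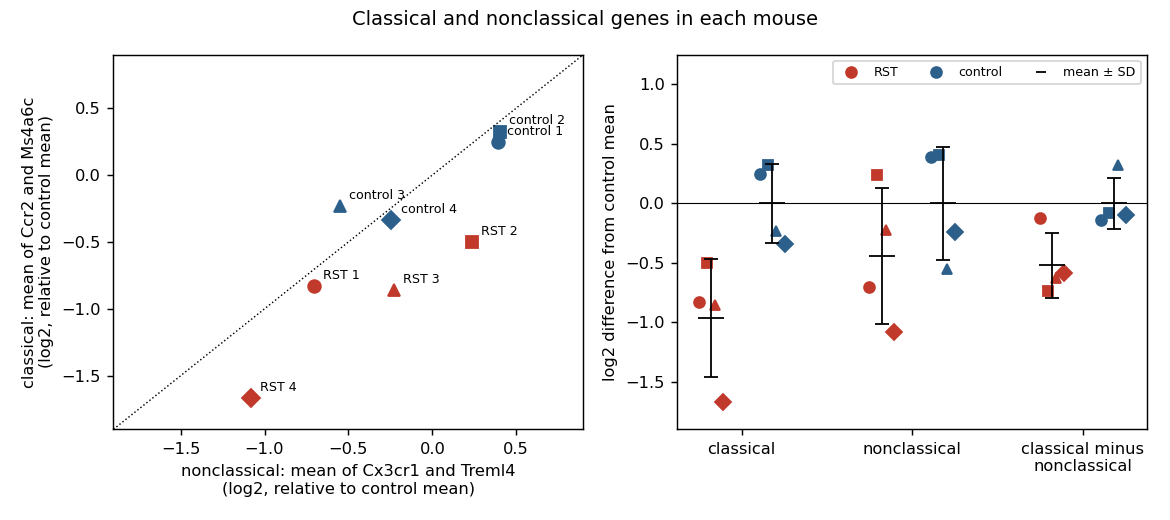
Left, mean of Ccr2 and Ms4a6c (y axis) against mean of Cx3cr1 and Treml4 (x axis), both in log2 units relative to the control mean, 1 point per mouse, with a dotted line where they are equal. Each gene is shown at its brightest probe set. Right, the same values and their difference by group with mean ± SD, where the classical values of RST mice (−1.67 to −0.50) lie below those of control mice (−0.34 to 0.32) and the other columns overlap.

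Ly86 and Ctss belong to the shared equipment of mononuclear phagocytes and antigen-presenting cells. Ly86 encodes MD-1, the partner of the receptor CD180, and is also expressed by B cells. Its probe set (1422903_at) had levels of 7.72, 7.54, 7.81 and 7.49 in RST mice, against 8.80, 9.04, 8.48 and 8.02 in control mice. The RST mice lay within a narrow range below every control mouse. The fold change was −0.95 (standard error 0.28, 1.93-fold lower, adjusted p = 0.32 from limma), with an exact permutation p of 0.029 (two-sided). Ctss encodes cathepsin S, the lysosomal protease that trims the invariant chain of MHC class II in macrophages, dendritic cells and B cells. Its probe set (1448591_at) had levels of 9.78, 10.39, 10.40 and 10.23 in RST mice, against 11.08, 11.52, 10.90 and 10.53 in control mice. All RST mice were below all control mice, and control mouse 4 came nearest to them. RST minus control came to −0.81 (standard error 0.29, 1.75-fold lower, adjusted p = 0.32 from limma), with an exact permutation p of 0.029 (two-sided). After each array was centred on its median tested probe set, Ms4a6c alone did not overlap between the groups. That is 1 of the 15 tested member probe sets, against 8.85% of all tested probe sets, so no excess over all probe sets remained. The fold changes of Ms4a6c, Ly86 and Ctss were then −0.91, −0.68 and −0.55.

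Csf1r encodes the receptor for colony-stimulating factor 1 and was measured by 3 probe sets. The brightest (1419872_at) had levels of 7.92, 9.16, 9.19 and 8.53 in RST mice, against 9.37, 9.65, 9.43 and 8.80 in control mice. RST mice 2 and 3 were near the control mice and RST mouse 1 was the lowest. The log2 difference was −0.61 (standard error 0.34, adjusted p = 0.42 from limma), and it was −0.35 without RST mouse 1. The other probe sets of Csf1r had fold changes of −0.89 and −0.38, with RST mouse 4 the lowest of the 8 mice at both. Lyz2 encodes the lysozyme of monocytes, macrophages and neutrophils. Its probe set (1423547_at) had levels of 11.26, 11.70, 11.99 and 12.00 in RST mice, against 12.28, 12.89, 12.23 and 11.55 in control mice. Control mouse 4 lay among the RST mice. The mean difference was −0.50 (standard error 0.32, adjusted p = 0.48 from limma). Lyz1, its close paralog, had a mean of 11.75 ± 0.39 in RST mice and 12.09 ± 0.50 in control mice (SD, n = 4 each), and whether the probes of 1 gene also bind the other was not tested.

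Cd14, the coreceptor for lipopolysaccharide on monocytes and neutrophils, was the exception with a higher mean in RST mice. Its probe set (1417268_at) had levels of 2.08, 5.80, 6.38 and 4.87 in RST mice, against 4.04, 6.17, 4.83 and 2.62 in control mice. RST mouse 1 and control mouse 4 were the lowest of their groups, the probe set was above the array median in 6 of 8 arrays, and the groups overlapped along their whole range. The fold change was 0.37 (standard error 0.90, 95% confidence interval −1.60 to 2.34, adjusted p = 0.87 from limma), the least precise of the 16, and it was 1.27 without RST mouse 1 and −0.23 without control mouse 4.

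The promoters of the 3 genes whose groups did not overlap and of Cx3cr1, a nonclassical gene, are shown so that their elements can be compared. The RefSeq promoters used here (GRCm38.p6) include 7 of the 9 members, with 250 bases before the start and 50 after it, and 260 bases of each are printed 5′ to 3′ on the strand of the gene, ending 10 bases after the start. Capitals mark matches on either strand to AGGAAGT, the core bound by PU.1 (the master regulator of monocytes) and other ETS factors, or to GAAA and GAAA with any 2 bases between them, the element of interferon regulatory factors. The windows are chr19:11469118-11469377 (plus strand) for Ms4a6c, chr3:95526536-95526795 (plus) for Ctss, chr13:37345095-37345354 (plus) for Ly86 and chr9:120068287-120068546 (minus) for Cx3cr1.
Ms4a6c: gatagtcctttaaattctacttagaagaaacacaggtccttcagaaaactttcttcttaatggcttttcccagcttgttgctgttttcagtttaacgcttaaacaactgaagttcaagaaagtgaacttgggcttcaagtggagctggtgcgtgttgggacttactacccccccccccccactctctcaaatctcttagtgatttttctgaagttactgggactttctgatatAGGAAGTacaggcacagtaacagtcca
Ctss: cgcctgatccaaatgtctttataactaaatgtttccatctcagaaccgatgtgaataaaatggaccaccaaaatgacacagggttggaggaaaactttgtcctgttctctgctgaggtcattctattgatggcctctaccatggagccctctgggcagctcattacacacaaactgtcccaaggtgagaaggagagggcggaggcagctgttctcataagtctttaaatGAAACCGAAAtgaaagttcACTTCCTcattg
Ly86: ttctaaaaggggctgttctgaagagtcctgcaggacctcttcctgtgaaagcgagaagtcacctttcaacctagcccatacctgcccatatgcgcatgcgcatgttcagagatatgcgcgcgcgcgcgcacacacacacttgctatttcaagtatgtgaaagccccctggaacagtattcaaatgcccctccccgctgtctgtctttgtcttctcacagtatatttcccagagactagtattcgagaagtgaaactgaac
Cx3cr1: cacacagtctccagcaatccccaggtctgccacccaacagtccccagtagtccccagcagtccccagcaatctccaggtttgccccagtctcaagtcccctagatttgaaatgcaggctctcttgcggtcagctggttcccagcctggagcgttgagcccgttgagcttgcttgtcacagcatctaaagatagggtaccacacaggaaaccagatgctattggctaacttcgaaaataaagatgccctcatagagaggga
The ETS core stood at −17 to −11 from the start of Ms4a6c and, on the reverse strand, at −2 to 5 in Ctss, and the interferon element at −21 to −12 in Ctss, with no overlap between the elements. Over the full 300 bases, 3 of 7 member promoters held AGGAAGT (Lyz2 at −100 to −94 besides these), against 9.35% of 32851 promoters. The interferon element was in 1 of 7, against 3.44%, and TTGCNNAA, a core of C/EBP factors, was in 0 of 7, against 10.8%. A match says only that these letters occur in the window.

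Within the 8 mice the members did not all follow one pattern. After the median tested probe set of each array was subtracted, Pearson's r over the 8 arrays was 0.88 between Ctss and Lyz2, 0.84 between Ctss and Ly86, 0.84 between Ctss and Csf1r and 0.80 between Ctss and Ccr2. Ms4a6c stood further off, at 0.60 with Ly86, 0.55 with Ccr2, 0.08 with Csf1r and −0.43 with Cd14. Cx3cr1 and Treml4 had an r of 0.44 with each other. The points share the array and its scaling, and these values are descriptions. Of 11762 genes at their brightest probe set, those most like Ms4a6c were Actr8 (0.98), Jakmip1 (0.97) and Nmi (0.97), and those most like Treml4 were Coro1b, Mpeg1 and Cebpg (0.98 each). Mpeg1 encodes perforin-2, a pore-forming protein of macrophages, and its mean was 7.85 in RST mice and 8.34 in control mice.

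Other genes of the monocyte lineage were taken from lists, each gene at its brightest probe set, and no gene of any of these lists was called by limma. For 11762 genes the median fold change was −0.24. Of all tested probe sets 13.3% passed the unadjusted threshold, and 10.4% did so in the lower direction. The mean was lower in RST mice for all 12 measured transcription factors of the lineage (median −0.44), and 1 passed the unadjusted threshold. That gene was Irf8, a factor required for monocyte development, at 6.05 ± 0.88 in RST mice and 7.05 ± 0.46 in control mice (SD, n = 4 each). Irf4, a related factor, had a fold change of −0.61 (standard error 0.31). Spi1, which encodes PU.1, is on the same list at −0.10 (adjusted p = 0.94 from limma). Zeb2 and Cebpb were at −0.03 and −0.001. These last 3 lay above the median gene, and the rest of the list lay below it. The 9 tested genes of CSF1R ligands and signalling also had lower means (median −0.40), with Ptpn6, a phosphatase that restrains receptor signalling, at 7.55 in RST mice and 8.26 in control mice. Csf2rb, the shared beta chain of cytokine receptors, had a fold change of −0.89 (standard error 0.55), and the ligand gene Il34 was below the array median in every array. Of 20 general monocyte and macrophage genes, 17 had a lower and 3 a higher mean (median −0.39). Fcgr2b, an inhibitory Fc receptor shared with B cells, was at 6.98 in RST mice, against 7.95 in control mice, and Clec4a2, a lectin receptor, was at 3.85 in RST mice, against 4.60 in control mice.

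Beyond Ccr2 and Ms4a6c, 12 other genes listed for classical monocytes were tested. They were split evenly, with 6 higher and 6 lower means and a median of −0.03, or 0.21 relative to the median gene. The part of neutrophils and other blood cells in these values was not tested. Fcgr1, the high-affinity Fc receptor, was at 3.82 in RST mice, against 4.62 in control mice, and Vcan, a matrix proteoglycan, was at 5.38 in RST mice, against 6.25 in control mice. Of 16 other nonclassical genes, 12 had a lower and 4 a higher mean (median −0.33, or −0.08 relative to the median gene). Cd36, a scavenger receptor that platelets and red cell precursors also express, was the 1 gene of these 2 lists that passed the unadjusted threshold, at 10.62 ± 0.41 in RST mice, against 9.37 ± 0.49 in control mice (SD, n = 4 each). Pou2f2, a transcription factor shared with B cells, was at 5.74 in RST mice, against 6.74 in control mice.

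Of the receptors' partners, Ly96, which encodes the MD-2 subunit of the lipopolysaccharide receptor, had levels of 3.15, 2.98, 5.06 and 3.83 in RST mice, against 5.26, 5.95, 5.12 and 4.70 in control mice. RST mouse 3 alone lay within the control range, and Ly96 was above the array median in 6 of 8 arrays. Its fold change was −1.51 (standard error 0.45, adjusted p = 0.32 from limma), and the 6 tested genes of this list had 5 lower means and 1 higher. Myd88, the adaptor of that receptor, was at 4.54 ± 1.62 in RST mice, against 5.61 ± 0.22 in control mice (SD, n = 4 each). The ligands Cx3cl1 and Ccl2 were at 4.08 and 4.21 in RST mice and 3.67 and 4.14 in control mice, and Ccl7, Ccl8 and Ccl12 were below the array median in every array. Ackr2, a scavenging receptor for chemokines, had a fold change of 0.42 (standard error 0.28). None of the 5 tested ligand and pathway genes passed the unadjusted threshold.

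Genes of lysosomal proteases, their inhibitors and other lysosomal proteins, listed beside cathepsin S, did not follow one direction. Ctsb, which encodes cathepsin B, had levels of 12.08, 12.25, 11.91 and 11.99 in RST mice, against 11.07, 11.21, 11.61 and 11.62 in control mice. Every RST mouse was above every control mouse, and the fold change was 0.68 (standard error 0.25, adjusted p = 0.33 from limma). Ctsh, an aminopeptidase of the same family, was at 6.89 ± 0.37 in RST mice, against 7.84 ± 0.57 in control mice (SD, n = 4 each). The other 11 genes of this list did not pass the unadjusted threshold, and over all 13 there were 11 lower and 2 higher means. In the MS4A family, 8 relatives of Ms4a6c were tested (median −0.68). Of these 4 passed the unadjusted threshold, all lower in RST mice, against 10.4% of all tested probe sets in that direction. Ms4a4c and Ms4a4b had non-overlapping groups, as did Ms4a6b, against 5.76% of all tested probe sets for those lower in RST mice. Ms4a4c was at 6.88 ± 0.40 in RST mice, against 8.02 ± 0.40 in control mice, and Ms4a4b, a T cell member of the family, was at 9.06 ± 0.10 in RST mice, against 9.85 ± 0.30 in control mice (SD, n = 4 each). Ms4a1, also among the 4, encodes the B cell antigen CD20 and was at 8.55 ± 0.44 in RST mice, against 9.54 ± 0.46 in control mice (SD, n = 4 each). Of the 4 tested relatives of Treml4 in the TREM family none passed, with Trem1 at 5.25 in RST mice, against 4.56 in control mice, and Treml1, a platelet gene, at 8.57 in RST mice, against 8.35 in control mice.

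Markers of other blood cells were measured in the same mice. For each list the linear levels of its genes were summed, and the log2 of the sum is given. All 7 tested B cell genes of 8 on the array passed the unadjusted threshold, lower in RST mice, against 10.4% of all tested probe sets in that direction. The sum over the 8 was 10.52 to 10.93 in RST mice and 11.29 to 12.35 in control mice, with no overlap. Pax5, a defining B cell factor, was below the array median in every array. The NK cell sum (6 of 6 genes tested) was 10.07 to 10.48 in RST mice and 10.68 to 11.43 in control mice, and the T cell sum (8 of 8) was 9.75 to 10.58 in RST mice and 10.58 to 11.22 in control mice, where the ranges nearly touched. B cells share Ly86 and Ctss with monocytes, NK cells share Cx3cr1, and T cells share Ccr2. The part of these cells in the member values, and in those of the monocyte lists and lineage factors, was not tested. The sum of the general monocyte genes overlapped, at 11.49 to 12.45 in RST mice and 11.81 to 12.85 in control mice. So did the neutrophil sum (10 of 10), at 12.05 to 13.59 in RST mice and 12.96 to 13.78 in control mice, with 6 lower and 4 higher means. Of its genes 3 passed the unadjusted threshold, all lower in RST mice, against the same 10.4% of all tested probe sets. The dendritic cell sum (5 of 7 genes tested, Xcr1 below the median in every array) was 6.52 to 7.41 in RST mice and 7.35 to 7.73 in control mice. The tissue macrophage sum (6 of 7, Marco below the median in every array) overlapped along its whole range, at 7.17 to 9.35 in RST mice and 6.86 to 10.86 in control mice. The eosinophil and basophil sum (7 of 8) was 6.26 to 6.61 in RST mice and 7.15 to 8.61 in control mice, with no overlap. In that list Siglecf, Epx and Cpa3 were each above the array median in 2 of 8 arrays, all of control mice. They passed the filter through that group alone, so the separation is a description. Prg2 was above the array median in 4 of 8 arrays, with levels of 7.94, 2.36, 6.39 and 5.36 in control mice 1 to 4. The platelet sum (7 of 7) overlapped, at 13.22 to 13.55 in RST mice and 13.27 to 13.46 in control mice. The reticulocyte and erythroid sum (7 of 7) ran the other way, at 14.46 to 14.59 in RST mice and 14.06 to 14.36 in control mice. The part of this higher erythroid signal in the member values was not tested.

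**Figure D4:**
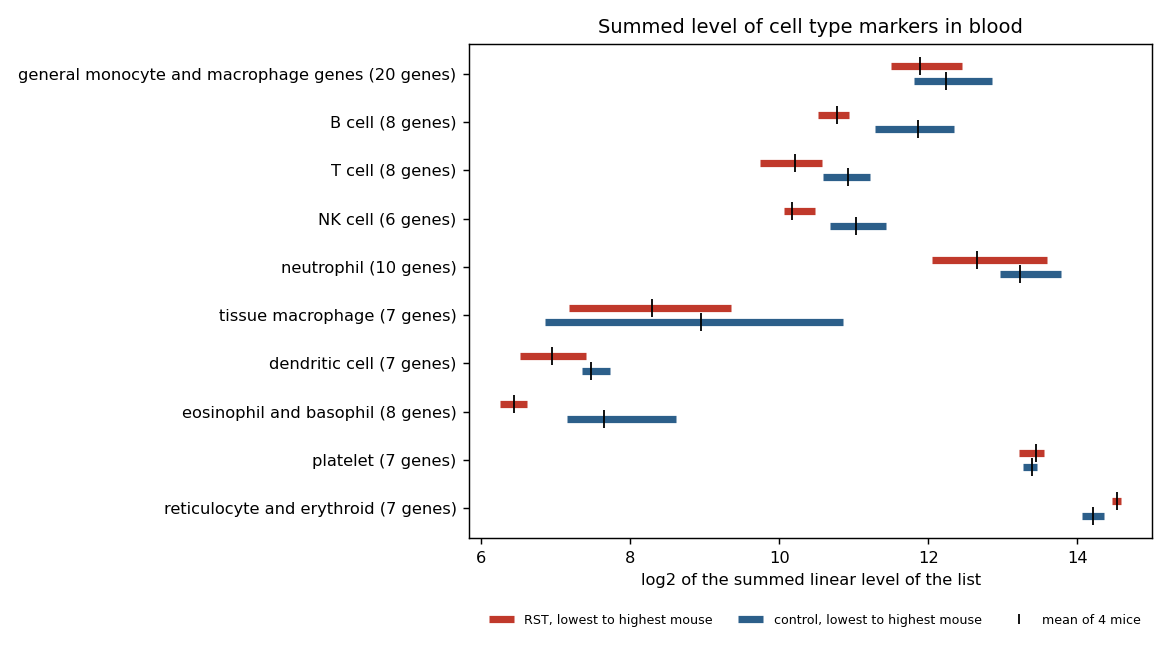
Log2 of the summed linear level (x axis) of marker genes for 10 cell types, with bars from the lowest to the highest of 4 RST mice (red) or 4 control mice (blue) and ticks at the mean. The B cell, NK cell, and eosinophil and basophil bars of RST mice lie below those of control mice. In the eosinophil and basophil list, Siglecf, Epx and Cpa3 passed the filter through control mice alone. The T cell bars nearly touch, the erythroid bar of RST mice lies above, and the monocyte and macrophage bars overlap.

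The members were also set beside the signal of the whole array, whose part in the results was not tested. Of the 15 tested probe sets, RST mouse 4 was the lowest of the 8 mice in 9, against 41.5% of all tested probe sets, and RST mouse 1 was the lowest in 6, against 8.72% of all. Control mouse 2 was the highest in 11, against 22.5% of all. Among the 3 arrays with the lowest hybridization controls, RST mouse 2 differed from control mice 1 and 2 by −0.87 in Ms4a6c, −1.38 in Ly86, −0.91 in Ctss, −0.70 in Ccr2, −0.40 in Cx3cr1 and 0.09 in Treml4. Among the other 5 arrays (3 RST and 2 control mice) the differences were −1.15, −0.58, −0.58, −0.52, −0.10 and −0.45 for the same genes in that order. The first set holds 1 RST mouse, and the sign is fixed for Ms4a6c, Ly86 and Ctss, whose groups do not overlap. Ccr2 and Cx3cr1 were below 0 in both sets, and Treml4 in the second set alone.

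**Figure D5:**
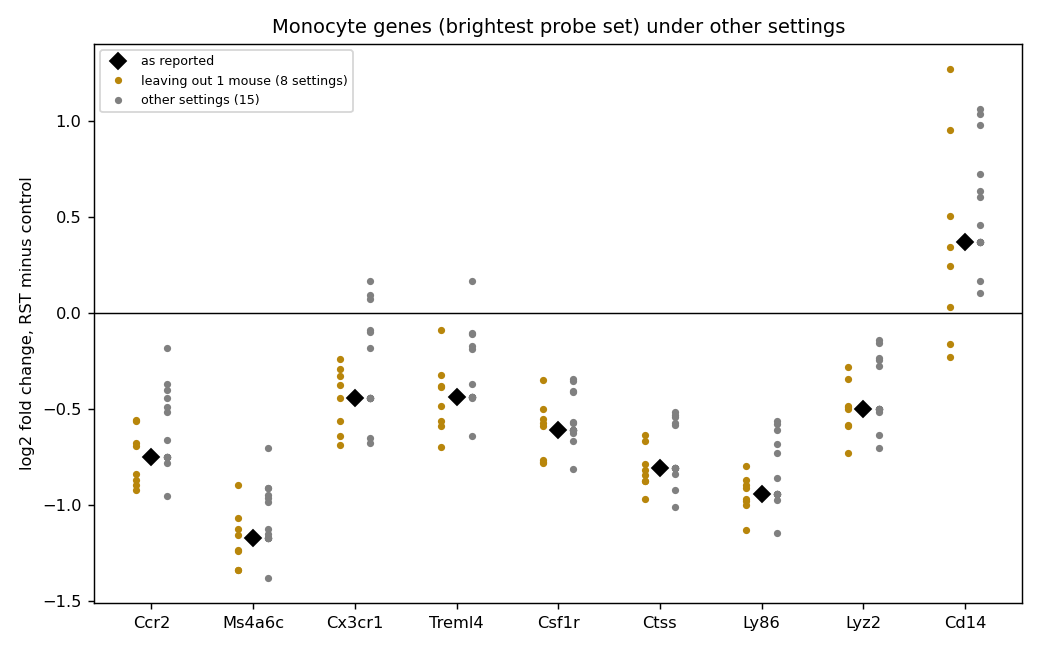
Log2 fold change (RST minus control, y axis) of the brightest probe set of each gene, as reported (diamonds), without 1 mouse (gold, 8 settings) and under 15 other settings (grey). Ms4a6c ran from −1.38 to −0.71, Ly86 from −1.15 to −0.56 and Ctss from −1.01 to −0.52, while Cx3cr1, Treml4 and Cd14 reached both sides of 0.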

How the data were processed

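Blood RNA of 8 mice (30 ng each, amplified and biotin-labeled) was hybridized to Affymetrix GeneChips, 1-color arrays. Values are as deposited by the authors, on a log2 scale and already background-corrected, normalized and summarized to probe sets. The methods name GSRMA, and the submitters' processing notes name RMA, Partek and Expression Console (version 1.2.0.20). Normalization sets the scale of every fold change, and the deposited columns are not exactly quantile-equalized.

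The filter on the array median stands in for presence calls, which were not used here, and 64 array control probe sets were excluded. Groups were compared by limma 3.58.1 (R 4.3.3), adjusted over 25084 probe sets. For the member probe set that failed the filter, values come from a fit without the filter. Gene names come from the platform annotation (34958 probe sets with 1 gene, 932 with several, which were not named, and 9211 not listed), updated through Entrez identifiers for 34754. A gene was represented by its brightest tested probe set. Single levels were compared by exact permutation. The members and lists were chosen with earlier results of these data known. Of 208 listed genes, 188 had a probe set with 1 name. Named are all members, the 2 genes with the smallest p of each list of monocyte and pathway genes (not of the marker lists, which are given by their sums) and the 3 genes most correlated with Ms4a6c and Treml4. Lyz1, Spi1, Zeb2, Cebpb, Ccl2, Il34, the other chemokines, Pax5, Xcr1, Marco, Ms4a1 and Ms4a6b were added after their values were seen. The fit was tested on simulated data. Slide and scan date were not used here. The number of arrays limits the precision. Figures were drawn with matplotlib 3.10.9.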

Additional observations from a re-analysis of the deposited data

Results flagged for a closer look

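Of 38 groups of 4 mice examined (16 probe sets and 3 subset scores in each group), 2 held a mouse far from the other 3, where chance alone gives about 1 in 20. At the Cx3cr1 probe set below the filter (1450019_at), control mouse 4 was at 3.22 and the next control mouse at 2.53, a gap of 0.88 of the range of the control mice. For the classical minus nonclassical value, control mouse 3 was at 0.32 and the next control mouse at −0.08, a gap of 0.86 of the range.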

How the results depend on the processing

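None of the 15 tested member probe sets was called under any of the 22 alternatives for that count, and 0 were called without each mouse in turn. The number past the unadjusted threshold (4 as reported, with 13.3% of all tested probe sets) was 2 after centring each array on its median tested probe set (13% of all), 2 with the hybridization controls as a covariate (8.34% of all), 1 without control mice 1 and 2 (3.57% of all), and 2 to 7 on leaving out 1 mouse (7.07% to 20% of all). Chosen after seeing the data, the arrays with higher hybridization controls alone gave 1 (5.19% of all), and leaving out RST mouse 4 with control mice 1 and 2 gave 0 (6.94% of all). The fold change of Cx3cr1 (−0.45) turned to 0.070 with that covariate, 0.094 without control mice 1 and 2 and 0.17 without RST mouse 4 and control mice 1 and 2, where Treml4 (−0.44) turned to 0.17. Cd14 (0.37) turned to −0.16 without RST mouse 3 and −0.23 without control mouse 4, and over all mice left out in turn it ran from −0.23 to 1.27. The cause was not tested. Ms4a6c, Ctss, Csf1r, Ccr2, Ly86 and Lyz2 stayed below 0 under all 23 alternatives run. Many of these could not turn the sign, as the filter, prior and block settings leave the fold change as it is. For Ms4a6c, Ctss and Ly86, whose groups do not overlap, leaving out mice could not turn it either. The median over tested probe sets (−0.20) was −0.02 with quantile-normalized arrays and −0.40 with arrays scaled to their control probe sets. With the replicate number as a block 5 member probe sets passed the unadjusted threshold (16.9% of all) and 0 were called, and the classical minus nonclassical value was −0.52. Whether mice with the same number shared more than that number is not given in the labels, and 4 pairs cannot decide it. The correlation of their deviations ran from −0.24 to 0.42, over 0.1 in 2 of 4 pairs, and 0 of 4 correlated best with its own number. The classical minus nonclassical value stayed between −0.66 and −0.34. Centring and scaling of each array cancel in this value, and the filters and the block leave it as it is. Those settings could not move it. Depth of signal limits the second Cx3cr1 probe set, below the array median in all 8 arrays, and Cd14, 1 other Ccr2 probe set and Ly96, each above it in 6 of 8.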
